A study of Rattus norvegicus with 3 samples.

Results

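The vascular endothelial growth factor (VEGF) and angiopoietin genes were followed through the postnatal rat cochlea as a set of 9 genes: the ligands Vegfa, Vegfb and Pgf, their receptors Kdr and Flt1, the angiopoietins Angpt1 and Angpt2, and the receptors Tek and Tie1. The genes were taken by name from a list of members, and all 9 were found among the 32623 genes of the matrices. The tissue was the cochlear basal membrane of untreated Sprague-Dawley rats at P1, P7 and P14 (the number is the day after birth), dissociated after pooling of rats, females and males not kept apart, with 1 10x Genomics 3′ library at each stage. By the dissection described for the study, the spiral ganglion, spiral ligament and stria vascularis were taken off the membrane first. A barcode was kept as a cell when it held 501 to 4999 genes and less than 25% of its unique molecular identifiers (UMIs, which count captured RNA molecules) on mitochondrial genes, which left 30641 of 34927 barcodes. The stages gave 12779, 12581 and 5281 cells at P1, P7 and P14.

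VEGF signalling is a main driver of new blood vessels. Vegfa binds Kdr, the receptor that carries most of the growth signal, and Flt1, which binds tightly and also works as a decoy, while Vegfb and Pgf bind Flt1. Tek, also called Tie2, is the receptor of the angiopoietins: Angpt1 activates it and steadies vessels, Angpt2 mostly opposes Angpt1 where vessels are remodelled, and Tie1 is the partner receptor without a well-established ligand of its own. The cochlea has capillary beds in its lateral wall and under the basilar membrane, and its sensory epithelium holds no vessels.

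Levels are given as CPM, the UMIs of the gene per 1000000 UMIs of a group of cells, with an exact 95% interval that covers counting error only. Each stage has 1 library, so differences between stages could not be tested, and what belongs to a stage cannot be told apart from what belongs to its library. The P14 library was shallow: its cells had a median of 1614 UMIs and 864 genes, against 6565 and 6878 UMIs and 2164 and 2377 genes at P1 and P7. Cells were clustered without the 9 genes and without other genes of the pathway, and a cluster was given a type from marker genes. Of 28 clusters, 2 were endothelial-like (1438 cells), 1 was pericyte and smooth muscle-like (678 cells) and 8 were connective tissue-like (16594 cells). A further 3 were glia-like (4009 cells) and 1 was cochlear epithelium-like (577 cells). Neuron-like (295 cells), B cell-like (289 cells), macrophage-like (200 cells) and hair cell-like (21 cells) had 1 cluster each, and 9 with 6540 cells stayed unnamed. The labels name the cells greater epithelial ridge cells, but those named from epithelial markers were only the small cochlear epithelium-like group, so the libraries were read as whole tissue. Between stages, kept cells shared 16 to 53 barcode sequences.

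Endothelial-like cells numbered 166 at P1, 188 at P7 and 1084 at P14, which is 1.30% (1.11 to 1.51), 1.49% (1.29 to 1.72) and 20.5% (19.4 to 21.6) of each library by exact binomial intervals. The 7 endothelial markers found in the matrices, among them Cdh5, Cldn5 and Sox17, summed to 4552, 5543 and 5879 CPM in them, and Pecam1 is not among the genes of the matrices. These cells also carried the 8 pericyte and smooth muscle markers at 48.2, 346 and 739 CPM at P1, P7 and P14, the 8 glia markers at 145, 595 and 3143 CPM, the 5 fibrocyte markers at 38.4, 331 and 1747 CPM, the 7 fibroblast markers at 196, 514 and 1506 CPM and the 5 osteoblast markers at 132, 314 and 1201 CPM, all higher at each later stage. Lower at each later stage were the 6 erythroid markers in the matrices, at 5522, 1253 and 456 CPM, which at P1 is above the endothelial markers, and the 6 markers of dividing cells, at 483, 256 and 37.8 CPM. The smaller of the 2 clusters, led by Slco1a4 and Abcb4, with 170 of its 179 cells from P14, had 2614 CPM of the mural markers, against 82.1 CPM in the larger cluster, led by Plvap and Cldn5. The part of these markers in the levels below was not tested beyond leaving the smaller cluster out.

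**Figure D1:**
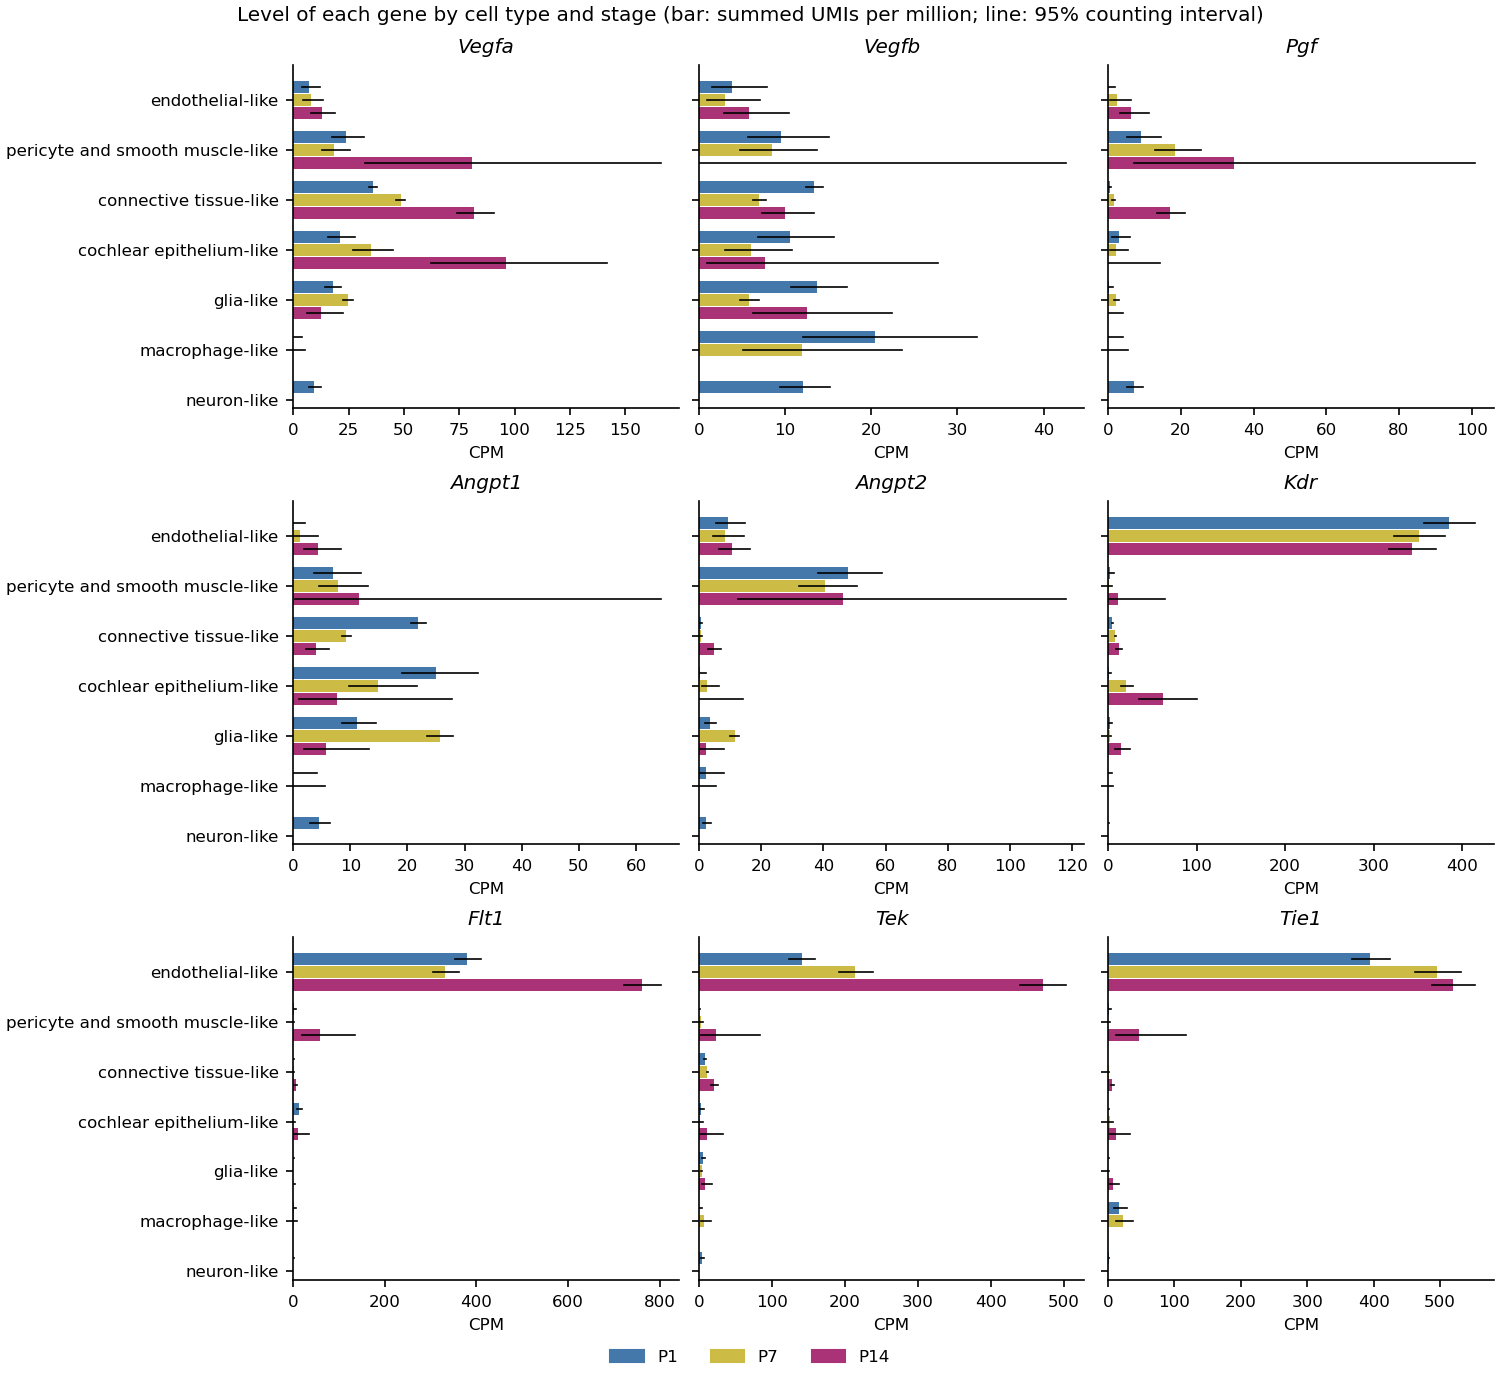
Level of each of the 9 genes (x axis, CPM, linear from 0 and scaled per gene) in 7 cell types (y axis) at P1, P7 and P14. Bars are levels from summed UMIs and black lines the 95% counting interval. Kdr, Flt1, Tek and Tie1 stand in the endothelial-like cells at every stage, Angpt2 in the pericyte and smooth muscle-like cells, and Vegfa and Angpt1 outside the endothelium. Groups under 50 cells are not drawn, and the long lines of the pericyte and smooth muscle-like cells at P14 come from 61 cells.

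The receptors were the genes of the endothelium. Kdr reached 385 CPM (357 to 415) in endothelial-like cells at P1, 351 CPM (323 to 381) at P7 and 343 CPM (317 to 370) at P14, against 3.74, 6.43 and 12.2 CPM in all other cells. Flt1 was at 380 CPM (353 to 410), 332 CPM (305 to 361) and 762 CPM (723 to 802), against 0.863, 0.689 and 7.78 CPM elsewhere. The P14 level of Flt1 thus lay far above the other stages, whose intervals overlapped, while all neighbouring stages of Kdr overlapped.

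Tek was at 141 CPM (124 to 159), 214 CPM (192 to 238) and 471 CPM (440 to 503) in endothelial-like cells, and at 7.42, 8.41 and 20.6 CPM in the other cells. No interval of Tek overlapped another, and the level was higher at each later stage. Tie1 was at 395 CPM (367 to 425), 495 CPM (462 to 531) and 519 CPM (487 to 553), against 0.634, 1.15 and 9.52 CPM. The P7 and P14 intervals of Tie1 overlapped, and both lay above that of P1.

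Against all other cells, all 4 receptors were higher in the endothelial-like cells by 2-fold or more at each stage, on the scale of log2 ratios with 10 CPM added. A gene was compared when it reached 10 CPM in 1 of the groups, which 7 members did at P1 (Pgf and Angpt2 did not), 6 at P7 (not Vegfb, Pgf or Angpt2) and 6 at P14 (not Vegfb, Pgf or Angpt1). Of all genes compared, 8.40% were higher by that much at P1, 8.02% at P7 and 10.0% at P14. Vegfa and Angpt1 were lower by 2-fold or more at P1 and P7, and Vegfa alone at P14, where 10.8%, 9.69% and 8.70% of genes were. The other 26 genes of the pathway leaned the same way as the receptors: 12 of 17 compared were higher at P1, 14 of 18 at P7 and 12 of 17 at P14, among them Flt4, the receptor of Vegfc, the VEGF co-receptors Nrp1 and Nrp2, and Ptprb, the phosphatase that holds Tek in check. The 1 that was lower, at P7 and P14, was Grb14, which codes for an adaptor of receptor kinases.

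How strictly the receptors kept to the endothelium differed. Of all Tie1 UMIs in kept cells, 92.2%, 88.5% and 91.3% lay in endothelial-like cells at P1, P7 and P14, and of Flt1 UMIs 89.3%, 89.6% and 95%. For Kdr the share was 66.1% (63.2 to 69.0), 49.4% (46.5 to 52.3) and 84.4% (81.6 to 86.9). For Tek it was 26.5% (23.7 to 29.4), 31.3% (28.6 to 34.1) and 81.5% (79.0 to 83.7). At P1 and P7 the connective tissue-like cells held more Tek UMIs than the endothelium, with 44.1% and 55.9%, but they were also 55.2% of the cells at both stages. These shares move with the number of endothelial-like cells in a library, while the CPM levels do not.

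Single cells were compared at equal depth by drawing 1000 UMIs from each cell and leaving out shallower ones, which kept 164, 182 and 723 endothelial-like cells. At least 1 of the 4 receptors was then seen in 69.5% of cells at P1, 74.7% at P7 and 83.5% at P14, and all 4 in 0.610%, 2.75% and 2.35%. With all UMIs the share with any receptor was 95.8%, 93.6% and 92.0%. For background, Kdr was seen at equal depth in 32.3%, 31.3% and 27.5% of endothelial-like cells, at a median depth of 9134, 6987 and 1228 UMIs before drawing, and in 0.167%, 0.197% and 0.623% of glia-like cells, at 8181, 5126 and 1957 UMIs. With all UMIs these shares were 84.3%, 75.0% and 35.9% in the endothelial-like and 1.84%, 1.27% and 3.74% in the glia-like cells.

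The sequences before the starts of Kdr, Flt1 and Tie1 are shown because these receptors stood together in the endothelial-like cells and had a promoter entry, which Tek did not. Each is the 250 bases upstream of the annotated start, 5′ to 3′ on the gene's strand, from RefSeq on GRCr8: Kdr at chr14:32571813-32572062 (plus strand), Flt1 at chr12:12333180-12333429 (plus strand) and Tie1 at chr5:137304982-137305231 (minus strand). Capitals mark GGAAG on either strand (CTTCC on the other), the core that ETS factors, many of them active in endothelium, can bind.
Kdr: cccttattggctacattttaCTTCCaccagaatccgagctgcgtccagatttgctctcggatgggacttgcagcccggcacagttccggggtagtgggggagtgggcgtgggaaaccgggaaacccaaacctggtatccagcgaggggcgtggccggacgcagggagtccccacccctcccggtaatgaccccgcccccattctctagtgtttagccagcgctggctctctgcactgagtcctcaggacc
Flt1: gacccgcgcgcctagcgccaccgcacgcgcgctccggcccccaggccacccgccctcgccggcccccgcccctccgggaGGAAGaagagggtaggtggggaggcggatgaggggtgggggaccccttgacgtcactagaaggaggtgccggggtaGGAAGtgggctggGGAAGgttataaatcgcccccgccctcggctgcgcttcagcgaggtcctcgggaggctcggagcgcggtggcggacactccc
Tie1: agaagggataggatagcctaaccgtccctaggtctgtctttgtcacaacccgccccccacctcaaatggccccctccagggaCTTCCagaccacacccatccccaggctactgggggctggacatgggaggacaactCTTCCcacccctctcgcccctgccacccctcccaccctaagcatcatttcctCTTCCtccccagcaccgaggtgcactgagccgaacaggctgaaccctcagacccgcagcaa
GGAAG occurred 1 time before Kdr, 3 times before Flt1 and 3 times before Tie1. Of 33469 promoters of the same length, 63.3% held it and 10.9% held it 3 times or more, so a match is common. Of the 9 members, 6 had an entry, and the core occurred 2 times before Pgf, 1 time before 1 of the 2 starts listed for Vegfa and not in the window of Vegfb. TATAAA was in the window of Flt1 alone among these entries, and in 12.9% of all promoters. ACGTG, 1 form of the core that hypoxia-inducible factors bind, was in none of these windows and in 16.6% of all promoters, searched on both strands too. The other form of that core, GCGTG, was not searched over all promoters. It can be read in the printed window of Kdr and, as CACGC on the other strand, in that of Flt1, so these windows do not lack the core.

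Within the endothelium, the balance of the receptors differed between the stages. From P1 to P14 the level of Tek was 3.34-fold (2.90 to 3.85), of Flt1 2.00-fold (1.83 to 2.20), of Tie1 1.31-fold (1.19 to 1.45) and of Kdr 0.889-fold (0.798 to 0.991). The direction of Kdr was not stable: its log2 ratio of -0.16, with 10 CPM added, became 0.08 without the smaller endothelial-like cluster, 0.07 when cells needed less than 10% mitochondrial UMIs, and 0.54 when endothelial cells were picked by a marker gate in place of clusters. The median gene of these cells was higher at P14 by 0.37 on the log2 scale, and relative to it Tek was at 1.30, Flt1 at 0.61, Tie1 at 0.01 and Kdr at -0.54. Of the 6 members compared, Tek alone was higher at P14 by 2-fold or more with 10 CPM added, as were 20.6% of all 8684 genes, and none was lower, as were 4.88%. Flt1 missed that size with a log2 ratio of 0.98 and passed it under some settings, over which it ran from 0.61 to 1.66, while Tie1, at 0.38, ran from 0.01 to 1.13 and passed it with the marker gate. Tek, at 1.67, ran from 1.30 to 2.29. From P1 to P7, Tek was 1.52-fold (1.29 to 1.79), Tie1 1.25-fold (1.13 to 1.39), Flt1 0.873-fold (0.779 to 0.978) and Kdr 0.911-fold (0.815 to 1.02), and 0 of 4 members passed 2-fold either way, where 3.27% of genes were higher and 1.92% lower.

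Ratios inside the same cells do not depend on how a library was scaled. Flt1 gave 0.987 UMIs per Kdr UMI at P1 (0.888 to 1.10), 0.946 at P7 (0.840 to 1.07) and 2.22 at P14 (2.02 to 2.44). Tek gave 0.356 UMIs per Tie1 UMI at P1 (0.308 to 0.412), 0.432 at P7 (0.380 to 0.490) and 0.907 at P14 (0.827 to 0.994). In the larger endothelial-like cluster alone the P14 values were 2.05 (1.85 to 2.28) and 0.899 (0.813 to 0.994), so both ratios were higher at P14 without the cells with mural markers. In that cluster Kdr was at 384, 357 and 406 CPM at P1, P7 and P14, and in the smaller one at 169 CPM at P14. No single endothelial-like cell held more than 11 Flt1 UMIs at P14, while 1 cell at P1 held 65 of the 703 Kdr UMIs.

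**Figure D2:**
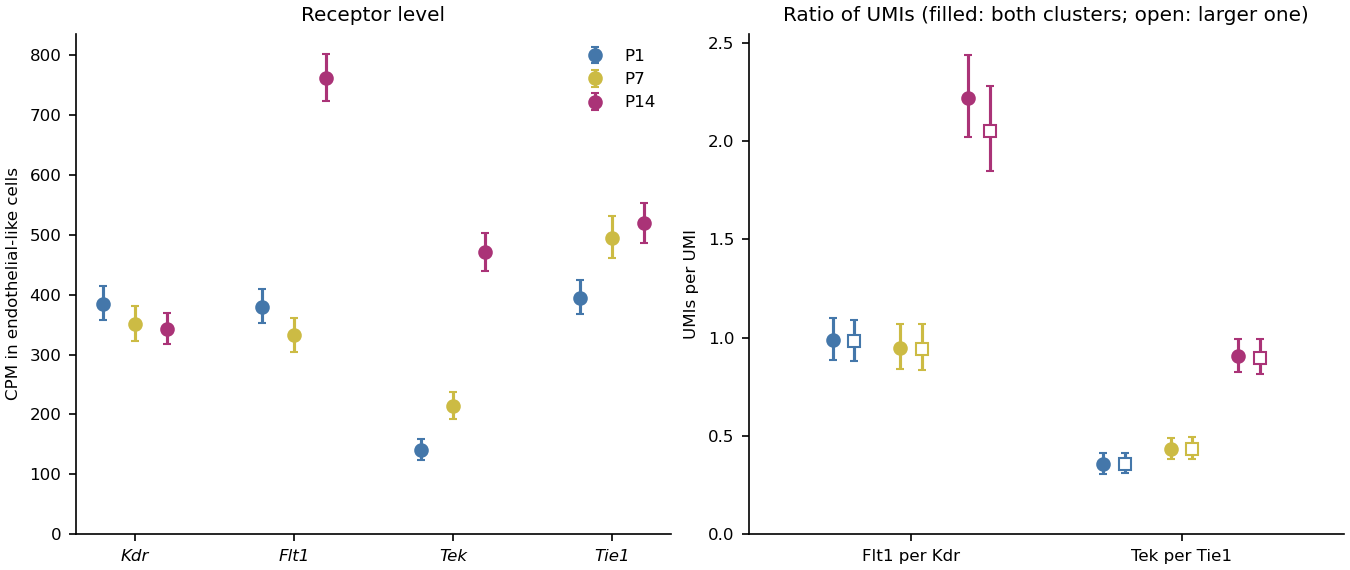
Receptors in endothelial-like cells at P1, P7 and P14, as CPM (left) and as Flt1 UMIs per Kdr UMI and Tek UMIs per Tie1 UMI (right), both axes linear from 0, with 95% counting intervals. Filled points take both endothelial-like clusters, open squares the larger one alone. The P14 points of Flt1 and Tek and of both ratios stand above the other stages.

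Other genes of the pathway differed between the stages in the same cells. Of 17 compared, 9 were higher at P14 than at P1 by 2-fold or more with 10 CPM added, where 20.6% of all genes were and the median gene was higher by 0.37, and 2 were lower, where 4.88% were. Epas1, a hypoxia-inducible factor of endothelium, was at 322, 381 and 1140 CPM at P1, P7 and P14, and Hif1a at 55.9, 44.7 and 158 CPM. Nos3, the endothelial nitric oxide synthase, was at 58.1, 71.6 and 222 CPM, a P14 to P1 ratio of 3.82 (3.08 to 4.77). Ptprb was at 127, 104 and 369 CPM, and the ratio was 2.91 (2.51 to 3.40). The Notch ligand Dll4, which restrains sprouting, was at 22.5, 64.8 and 68.2 CPM, and Notch4 was at 34.0, 56.9 and 133 CPM. Cxcr4, a chemokine receptor, was at 8.77, 60.6 and 38.4 CPM, and the remaining higher genes were Plcg1 and Aplnr.

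The 2 lower ones were Esm1 and Apln. Both are known from the tips of growing vessels, as are Dll4 and Cxcr4, which were higher at P14, so genes known from that place went both ways. Esm1 was at 60.3 CPM (49.6 to 72.7) at P1, 36.7 CPM (28.0 to 47.2) at P7 and 2.66 CPM (0.865 to 6.22) at P14, and at P14 it was at 2.66 CPM in all other cells too. Apln, the ligand of the receptor Aplnr, was at 123 CPM (107 to 140), 196 CPM (175 to 218) and 21.9 CPM (15.7 to 29.6). The P14 levels of both lay below those of P1 and P7 without overlap. The ligand Vegfc had overlapping intervals at 28.0, 29.4 and 32 CPM, and so had the co-receptor Nrp2 at 98.7, 109 and 95.4 CPM. From P1 to P7, Aplnr, Dll4 and Cxcr4 were higher by 2-fold or more, where 3.27% of genes were, and none of the 17 was lower, where 1.92% were.

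**Figure D3:**
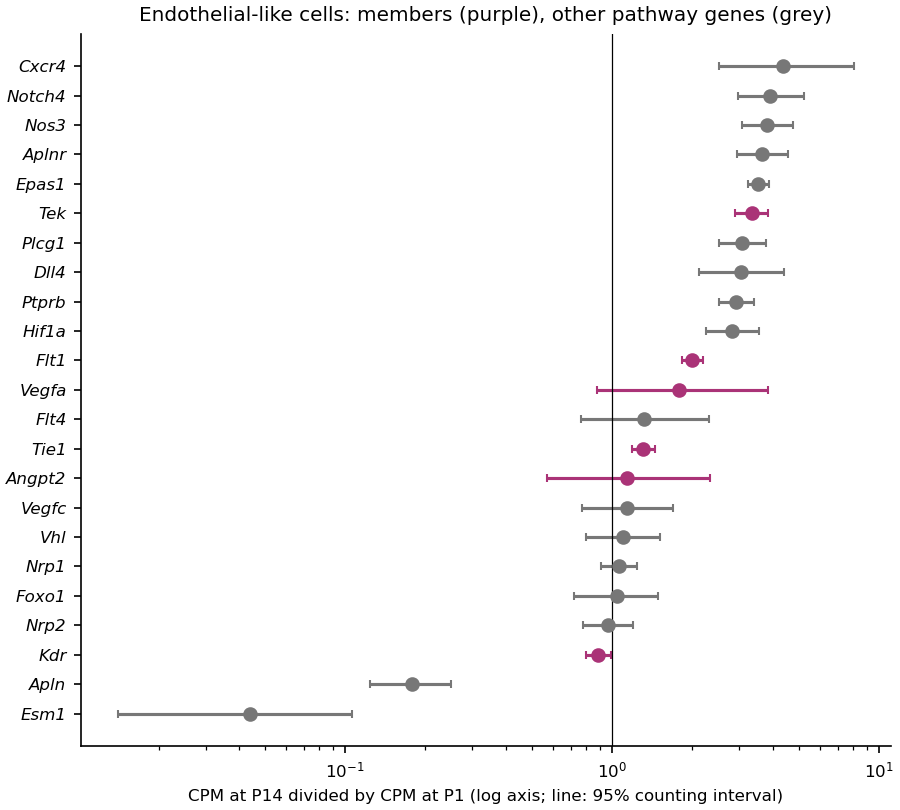
Ratio of the level at P14 to that at P1 in endothelial-like cells (x axis, log scale) for each member (purple) and other pathway gene (grey) with 30 or more UMIs over both stages, with 95% counting intervals. Cxcr4, Notch4, Nos3, Aplnr, Epas1 and Tek lie highest, Kdr lies just under 1, and Apln and Esm1 lie lowest.

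Over all cells of a library the receptors were much higher at P14 than at P1, by 6.04-fold for Kdr (5.49 to 6.63), 16.3-fold for Flt1 (14.9 to 17.8), 9.40-fold for Tek (8.61 to 10.3) and 11.5-fold for Tie1 (10.5 to 12.6). These 4 of 7 members compared passed 2-fold with 10 CPM added, as did 15.2% of all genes, and none was lower by that much, as were 5.38%. The share of endothelial-like cells moved with this, from 1.30% to 20.5%, while inside these cells the 4 ratios ran from 0.889 to 3.34. From P1 to P7 none of 5 members passed 2-fold either way over all cells, where 3.20% of genes were higher and 2.02% lower.

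The ligands lay mostly outside the endothelium. Connective tissue-like cells held 65.4%, 72.5% and 63.3% of all Vegfa UMIs at P1, P7 and P14, and made up 55.2%, 55.2% and 49.2% of the cells. Endothelial-like cells held 0.471%, 0.370% and 4.04% of these UMIs. In connective tissue-like cells Vegfa was at 36.0 CPM (34.4 to 37.7), 48.5 CPM (46.6 to 50.4) and 81.9 CPM (73.8 to 90.6), and in endothelial-like cells at 7.13, 7.95 and 12.8 CPM with intervals that overlapped. In cochlear epithelium-like cells it was at 21.2 CPM (15.7 to 28.0), 35.2 CPM (27.1 to 45.0) and 96.2 CPM (62.2 to 142), a P14 to P1 ratio of 4.53 with a lower bound of 2.69. Its log2 ratio of 1.77 with 10 CPM added became 0.95, under 2-fold, when cells needed less than 10% mitochondrial UMIs. In the same epithelium-like cells the 5 fibrocyte markers were at 411, 605 and 58648 CPM and the 8 glia markers at 806, 1719 and 12457 CPM. The 10 epithelial markers were at 9478, 25680 and 8771 CPM, so at P14 both other lists lay above them. The P14 cells thus cannot be taken as epithelium alone, and the part of these markers in the Vegfa level was not tested. No Vegfa UMI was found in macrophage-like cells, where a count of 0 allows up to 3.41 CPM at P1.

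The order of Vegfa levels over 36 groups of type and stage began with the unnamed P14 cluster led by Clec3b and Gpcpd1, at 103 CPM (82.8 to 127). Epithelium, connective tissue and pericytes of P14 followed, at 96.2, 81.9 and 80.8 CPM, the last from 7 UMIs, and none of these 4 differed from its neighbour beyond the counting error. Over all cells Vegfa was at 28.2, 37.7 and 51.0 CPM.

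The connective tissue of P14 was not made of the clusters of the earlier stages. At P14 it came from a cluster led by Coch and Dmp1 (1741 of 2600 cells) and one led by Ptgds and Slc7a11 (848 cells), which held almost no cells of P1 or P7. Vegfa was at 88.5 CPM (78.0 to 99.9) and 68.7 CPM (56.5 to 82.8) in them. Between P1 and P7 the same clusters could be compared: Vegfa went from 29.8 to 42.7 CPM in the cluster led by Isyna1 and Col9a3, from 31.2 to 40.7 CPM in that of Aldh1a2 and Calb2 and from 29.2 to 46.8 CPM in that of Dlx5 and Sfrp4, all without overlap of the intervals. In the clusters of Plagl1 and Col6a1, at 46.3 and 54.8 CPM, and of Gcg and Car3, at 58.3 and 64.0 CPM, the intervals overlapped. The last had the highest value of the connective tissue-like clusters at both stages, at P1 within the counting error of that of Plagl1 and Col6a1.

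Vegfb was low at every stage. Over all cells it was at 13.0 CPM (12.3 to 13.8) at P1, 6.82 CPM (6.30 to 7.37) at P7 and 8.16 CPM (6.60 to 9.98) at P14, and P1 lay above both others. In connective tissue-like cells it was at 13.4, 7.04 and 10.0 CPM, and in glia-like cells at 13.7, 5.85 and 12.5 CPM, with P7 below P1 without overlap in both. Endothelial-like cells of P1 held less than all other cells, at 3.84 against 13.2 CPM, a ratio of 0.290 (0.117 to 0.60). The highest groups were macrophage-like cells of P1, at 20.4 CPM from 18 UMIs, and the unnamed cluster led by Nefh and Pcsk1 at P1, at 19.2 CPM, and none of the 8 highest groups differed from its neighbour beyond the counting error.

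Pgf, which is best known from placenta, was found in mural cells and late connective tissue. In pericyte and smooth muscle-like cells it was at 9.03 CPM (5.26 to 14.5) at P1, 18.5 CPM (12.9 to 25.7) at P7 and 34.6 CPM (7.14 to 101) at P14, the last from 3 UMIs in 61 cells. In connective tissue-like cells it was at 0.459 CPM (0.291 to 0.689), 1.52 CPM (1.21 to 1.90) and 17.0 CPM (13.4 to 21.2), so P14 stood 37.0-fold (23.0 to 61.8) above P1, with 20.3 CPM in the Coch and Dmp1 cluster and 10.5 CPM in that of Ptgds and Slc7a11. Neurons of P1 held 44 of the 111 Pgf UMIs of that stage, at 7.26 CPM. In connective tissue-like cells Pgf was the only one of 6 members that was higher at P14 than at P1 by 2-fold or more with 10 CPM added, where 15.4% of genes were, and Angpt1 the only one that was lower, where 7.15% were. Vegfa just missed that size there, with a log2 ratio that rounds to 1.00, and it ran from 0.76 to 1.19 under the other settings. None of 4 members passed 2-fold from P1 to P7 there, where 3.36% of genes were higher and 1.47% lower.

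**Figure D4:**
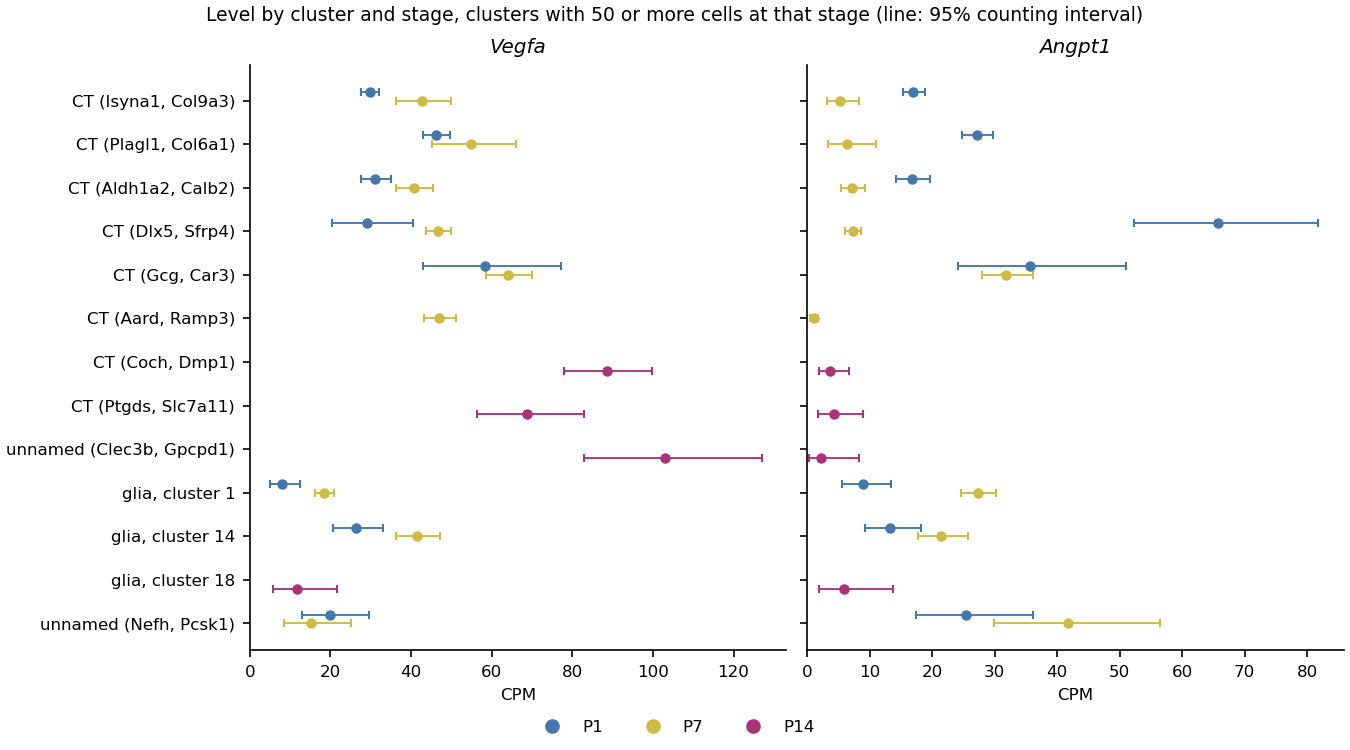
Level of Vegfa (left) and Angpt1 (right) in CPM (x axes, linear from 0) in single connective tissue-like (CT), glia-like and unnamed clusters, named by their leading genes or, for glia-like clusters, by number, at stages with 50 or more cells of the cluster. Lines are 95% counting intervals. Vegfa is highest in P14 clusters. Angpt1 is lower at P7 than at P1 without overlap of the intervals in 4 of the 5 connective tissue-like clusters present at both stages. It is higher at P7 in the glia-like clusters present at both, with overlap in cluster 14.

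Angpt1, the activator of Tek, was a gene of connective tissue and glia in these cells and was almost missing from the endothelium, with 0, 2 and 8 UMIs at P1, P7 and P14. A count of 0 at P1 allows up to 1.64 CPM. Over all cells it was at 15.7 CPM (15.0 to 16.5), 13.2 CPM (12.5 to 14.0) and 4.04 CPM (2.97 to 5.37). In connective tissue-like cells it was at 21.9 CPM (20.7 to 23.3), 9.31 CPM (8.50 to 10.2) and 3.92 CPM (2.32 to 6.20), lower at each later stage without overlap. By cluster, the highest level was 65.8 CPM (52.3 to 81.8) at P1 in that of Dlx5 and Sfrp4, which was at 7.27 CPM at P7. The clusters of Isyna1 and Col9a3 (17.0 and 5.30 CPM), of Plagl1 and Col6a1 (27.2 and 6.42 CPM) and of Aldh1a2 and Calb2 (16.8 and 7.20 CPM) were lower at P7 too, and that of Gcg and Car3 had overlapping intervals at 35.7 and 31.8 CPM. Cochlear epithelium-like cells had 25 CPM (19.1 to 32.3) at P1, 14.9 CPM (9.79 to 21.6) at P7 and 7.69 CPM from 2 UMIs at P14.

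Glia went the other way between P1 and P7. In glia-like cells Angpt1 was at 11.2 CPM (8.53 to 14.5), 25.7 CPM (23.5 to 28.0) and 5.69 CPM (1.85 to 13.3), and the P7 to P1 ratio was 2.29 (1.75 to 3.06), against 0.424 (0.381 to 0.472) in connective tissue-like cells. Both glia-like clusters with cells at these stages were higher at P7, cluster 1 at 8.94 and 27.3 CPM and cluster 14 at 13.2 and 21.4 CPM, although the intervals of the latter overlapped. Scrublet marked 86.0% of the cells of the latter cluster as doublets. Over the 36 groups of type and stage, in which the clusters of a type are pooled, the highest level was 41.7 CPM (29.9 to 56.5) at P7 in the unnamed cluster led by Nefh and Pcsk1. In glia-like cells 0 of 4 members passed 2-fold with 10 CPM added from P1 to P7, where 3.34% of genes were higher and 2.74% lower, or from P1 to P14, where 13.5% and 12.2% were.

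Angpt1 is known from mural cells, but pericyte and smooth muscle-like cells held little of it, at 6.90 CPM (3.68 to 11.8), 7.92 CPM (4.43 to 13.1) and 11.5 CPM from 1 UMI. Over all stages its log2 ratio to other cells was -0.46 with 10 CPM added, and -0.86 to -0.34 under the other settings tried.

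Angpt2 was the angiopoietin of the mural cells. In pericyte and smooth muscle-like cells it was at 47.8 CPM (38.4 to 58.8) at P1, 40.6 CPM (32.1 to 50.8) at P7 and 46.2 CPM (12.6 to 118) at P14, the last from 4 UMIs, and the stages overlapped. In endothelial-like cells, where Angpt2 is best known, it was at 9.32 CPM (5.43 to 14.9), 8.56 CPM (4.68 to 14.4) and 10.7 CPM (6.51 to 16.5), and in connective tissue-like cells at 0.778, 0.704 and 4.79 CPM. The P14 endothelial-like cluster with mural markers had 17.9 CPM (8.20 to 34.0), against 8.0 CPM (4.0 to 14.3) in the larger one. Glia-like cells had 11.5 CPM (10.0 to 13.0) at P7 against 3.61 CPM (2.17 to 5.64) at P1, and by their number held 52.9% of all Angpt2 UMIs of P7. Against all other cells, pericyte and smooth muscle-like cells were higher by 2-fold or more in Angpt2 at P1 (1 of 6 members, where 5.93% of genes were), and in Pgf and Angpt2 at P7 (2 of 7, where 5.26% were) and at P14 (2 of 8, where 12.3% were). Tek was lower at P1, where 5.92% of genes were, none was at P7, where 5.91% were, and Kdr, Flt1 and Tek were at P14, where 16.8% were. These P14 levels came from 1, 5 and 2 UMIs. The other cells of P14 included the endothelial-like ones, which made up 20.5% of that library. Among the groups outside the endothelium, Flt1 was highest in these P14 cells, at 57.7 CPM (18.7 to 135), with overlap of the next group.

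Some receptor RNA lay in cells with few endothelial markers, and Kdr in the cochlear epithelium-like cells stood out. Kdr was found there as 3, 37 and 16 UMIs at P1, P7 and P14, at 1.27 CPM (0.263 to 3.72), 20.4 CPM (14.3 to 28.1) and 61.6 CPM (35.2 to 100). The P14 to P1 ratio was 48.3 (13.8 to 259) and the P7 to P1 ratio 16.0 (5.06 to 81.0). The fibrocyte and glia markers given above for these cells were also far higher at P14, and their part in the Kdr level was not tested. At P14 both lay above the epithelial markers, at 58648 and 12457 against 8771 CPM. The 79 cells of that stage thus cannot be taken as epithelium alone, and the ratios to P14 are not changes within 1 settled cell type. The UMIs lay in 3, 13 and 10 cells, all of which also held a UMI of the epithelial gene Epcam, as did 88.9%, 81.7% and 60.8% of these cells in general, and no cell held more than 8. At equal depth Kdr was seen in 0%, 2.62% (0.855 to 6.0) and 2.67% (0.325 to 9.30) of the epithelial cells, and with all UMIs in 1.07%, 5.96% and 12.7%, at median depths of 7540, 6752 and 2379 UMIs.

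To set this against endothelial RNA in general, each gene was divided by its own level in endothelial-like cells of the same stage. In epithelium at P14 Kdr was at 18% (10.3 to 29.2) of that level, against 1.52% for Flt1, 2.45% for Tek, 2.22% for Tie1 and 1.59% (0.956 to 2.48) for the 4 markers Cldn5, Cdh5, Egfl7 and Esam together. At P7 it was at 5.80% (4.08 to 7.99), against 0.166% for Flt1 and 0.177% for the 4 markers. At P1 the picture was another: Kdr was at 0.330% and Flt1 at 3.35% (2.26 to 4.78), with 0.352% for the 4 markers. Of the 7 endothelial markers, Ecscr was at 0 in the epithelium at every stage, with Cdh5 at 0 at P7 and Erg at P14.

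Flt1 in the epithelium was at 12.7 CPM (8.59 to 18.2) at P1, from 30 UMIs in 24 cells that all held Epcam, at 0.550 CPM (0.0139 to 3.06) at P7, from 1 UMI, and at 11.5 CPM at P14, from 3 UMIs in 1 cell. The P7 to P1 ratio was 0.0432 (0.00106 to 0.26), opposite to that of Kdr. Of 5 members compared from P1 to P7 in the epithelium, Kdr was higher by 2-fold or more with 10 CPM added, where 5.62% of genes were, and Flt1 lower, where 2.46% were. The log2 ratio of Kdr was 1.43, and it fell under 2-fold, to 0.76, when cells needed less than 10% mitochondrial UMIs, while that from P1 to P14, at 2.67, was 1.87 to 3.14 under the other settings. From P1 to P14, Vegfa, Kdr and Tie1 of 7 members were higher, where 15.3% were, with 3 UMIs of Tie1 at P14 in 2 cells, and none was lower, where 16.3% were.

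**Figure D5:**
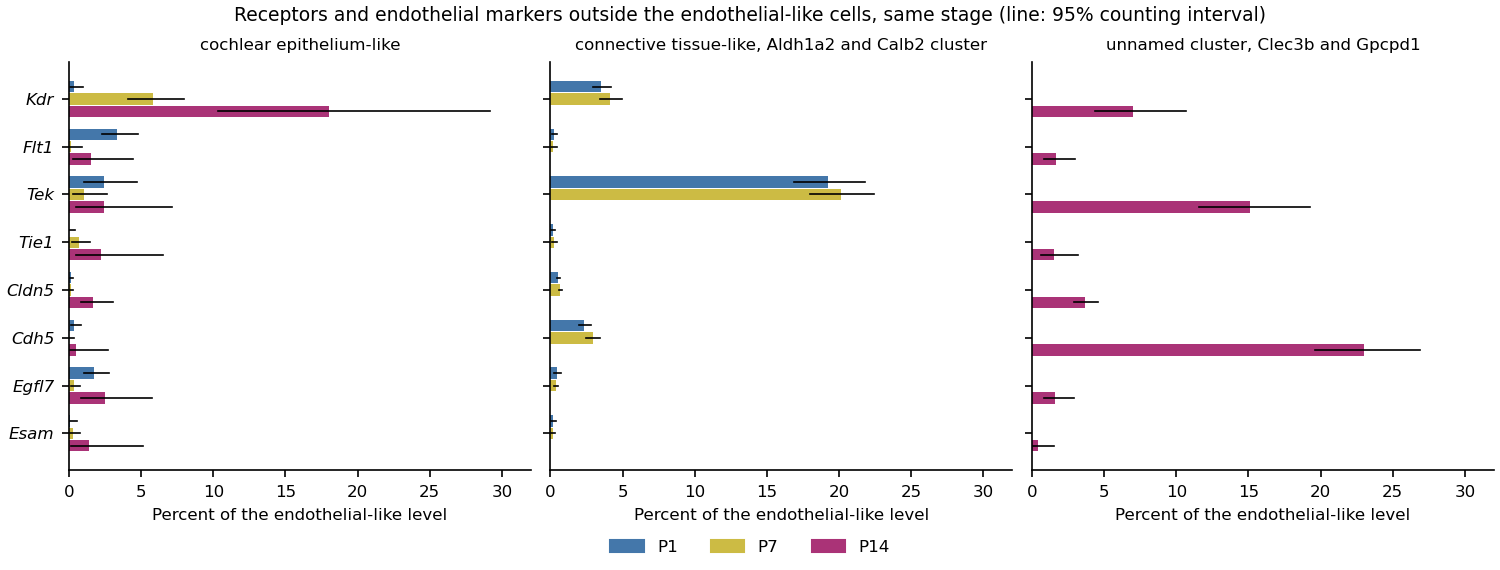
Level of the 4 receptors and of 4 endothelial markers outside the endothelial-like cells, as percent of the level in endothelial-like cells of the same stage (x axis, linear from 0), in cochlear epithelium-like cells, a connective tissue-like cluster and an unnamed cluster. Lines are 95% counting intervals. Kdr stands out in cochlear epithelium-like cells at P7 and P14, Tek in the connective tissue-like cluster at P1 and P7, and Tek and Cdh5 in the unnamed cluster at P14.

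Tek was the receptor found most in connective tissue. In the cluster led by Aldh1a2 and Calb2 it was at 27.1 CPM (23.8 to 30.7) at P1 and 43.1 CPM (38.6 to 47.9) at P7, which is 19.2% (16.9 to 21.8) and 20.1% (18 to 22.4) of the endothelial level. In the same cells Kdr was at 3.53% and 4.14%, Flt1 at 0.233% and 0.190% and Tie1 at 0.140% and 0.255%, and Cdh5, the highest of the 4 markers there, at 2.34% and 2.93%. At P14 the unnamed cluster of Clec3b and Gpcpd1, which also had the highest Vegfa, held Tek at 70.9 CPM (54.4 to 90.9), or 15.1% (11.6 to 19.3). In it Kdr was at 7.01% (4.34 to 10.7), Flt1 at 1.65% and Tie1 at 1.54%. Cdh5, however, was at 23.0% (19.6 to 26.9) there, with Cldn5 at 3.69%, Egfl7 at 1.62% and Esam at 0.422%, so Tek and Cdh5 stood above the rest together.

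Tie1 was also found in macrophage-like cells, at 17.0 CPM (9.53 to 28.1) at P1 and 22.4 CPM (12.6 to 37.0) at P7, each from 15 UMIs, where Kdr had no UMI at either stage. That was 4.31% and 4.53% of the endothelial level. Egfl7 was at 35.4% and 16.4% there and Esam at 20.6% and 13.3%, while Cldn5 and Cdh5 stayed at 1.19% or less, so the markers were not alike in these cells. In pericyte and smooth muscle-like cells of P14, Flt1 and Tie1 came to 57.7 and 46.2 CPM from 5 and 4 UMIs, or 7.58% and 8.89% of the endothelial level. The 4 markers together were at 8.77% (6.11 to 12.2), but 26 of their 35 UMIs were of Esam, at 55.3% (36.1 to 81.0). Cldn5, Cdh5 and Egfl7 were at 1.86%, 2.88% and 4.45%.

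Over the 36 groups of type and stage with 50 or more cells, the log2 levels of the 4 receptors ran together, with Pearson's r from 0.88 (Tek and Tie1) to 0.96 (Flt1 and Tie1). Pgf and Angpt2 had r = 0.75, where the P14 pericyte and smooth muscle-like group rests on 3 and 4 UMIs. No other pair of members was over 0.28, and the lowest was Vegfb and Flt1 at -0.44. The groups share 3 libraries and differ in depth, so these values are a description. The receptors stood high in the endothelial-like group of each stage and far lower elsewhere, which by itself gives genes of the endothelium a high r. Of the genes named next, Sox17 and Cdh5 are among the markers from which the endothelial-like clusters were named. The gene most like Flt1 was Sox17 (r = 0.974), that most like Tek was Cdh5 (0.957), that most like Tie1 was Flt1 (0.956), and Kdr had Cyyr1 (0.941) and Slco2a1 (0.933) among its 3 nearest. Vegfa lay nearest to Dpyd (0.868) and Plod2 (0.866), Angpt2 to RGD1564664 (0.873), Rgs4 (0.859) and Tagln (0.841), Angpt1 to Sox5 (0.752) and Vegfb to Vps41 (0.731), and Pgf had Agap2 (0.851) and Tbx15 (0.829) among its 3 nearest. These were chosen from 12714 genes.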

How the data were processed

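The authors made 3 libraries with the 10x Genomics Chromium 3′ kit (version 3 chemistry in the labels), 1 per stage, from pooled rats, sequenced them and deposited UMI counts per gene and barcode, whole numbers without normalization, written by Cell Ranger 3.1.0 per the file headers. The submitters' processing notes name bcl2fastq, Cell Ranger and Seurat 3.1.1, and the study's methods give rn6. The annotation and the rule that called barcodes are not given in the sources used here. The deposited matrices held 114285848, 101264868 and 12616390 UMIs at P1, P7 and P14, of which 98005495, 93080129 and 11641065 lay in kept cells.

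Cells were kept with 501 to 4999 genes, at least 500 UMIs and under 25% mitochondrial UMIs. They were merged and log-normalized, and clusters were found with Seurat 5.3.0 under R 4.3.3 from 2000 variable genes, 10 principal components, resolution 0.8 and seed 0, after the members and 26 other pathway genes were taken out. A cluster was named from the best marker list when at least 3 of its markers were each in 10% of cells and 1 was among the 10 leading genes (in at least 25% of cells), and no other list had as many there. UMIs were summed per group of 50 or more cells and divided by the summed total. Intervals are exact Poisson for levels, conditional binomial for ratios and Clopper-Pearson for shares, a count of 0 was given a limit of 3 counts, and genes were called past 2-fold on log2(CPM + 10). With 1 library a stage, and cells that are no replicates of it, nothing was tested. Doublets were marked by Scrublet (scanpy 1.11.5) in 4.87%, 6.16% and 0.0379% of cells and kept, and the caller did not work at P14. Statistics used Python 3.11.15 with scipy 1.17.1. The steps were tested on simulated data.

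Named genes are the members, a written list of other pathway genes, the cell type markers, genes that lead a cluster, and for each member the 3 genes with the highest Pearson's r. The members and lists were chosen with earlier results of these data known. Promoter sequences came from RefSeq on GRCr8, a later build than that of the files, and entries for Tek, Angpt1 and Angpt2 were not used here. Some genes that the naming rule selects are not reported here.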

Additional observations from a re-analysis of the deposited data

Results flagged for a closer look

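Kdr differed in direction between cell types from P1 to P14. Its level at P14 was 48.3 times that at P1 in cochlear epithelium-like cells, 5.99 times in glia-like cells and 2.58 times in connective tissue-like cells, against 0.889 times in endothelial-like cells. In glia-like and connective tissue-like cells some other endothelial genes were higher at P14 too. Tie1 was at 21.0 times its P1 level in glia-like cells, from 2 UMIs at P1 and 7 at P14. In connective tissue-like cells Tie1 was at 12.8 times and Flt1 at 9.51 times. Flt1 in glia-like cells had 2 UMIs at P1 and 0 at P14. The markers Cldn5, Cdh5, Egfl7 and Esam together went from 0.320% to 1.04% of their endothelial level in glia-like cells. Together they went from 0.352% to 1.59% in the epithelium and from 0.977% to 3.1% in connective tissue-like cells. The last rise was mostly Cdh5, with 441 of the 655 marker UMIs at P14, 349 of them in the cluster of Ptgds and Slc7a11. Cldn5 and Egfl7 were at 1.30% and 1.34% in connective tissue-like cells at P14, and their intervals overlapped those of P1. Esam went from 0.219% to 0.723% there. The fibrocyte markers of the epithelium-like cells went from 411 to 58648 CPM and the glia markers from 806 to 12457 CPM. At P14 both lay above the epithelial markers of these cells, at 8771 CPM. The difference was not tested, since each stage has 1 library, and the direction in endothelial-like cells turned under 3 of the settings tried. The connective tissue-like and glia-like cells of P14 came from other clusters than those of P1.

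Angpt1 differed in direction between P1 and P7. The P7 to P1 ratio was 2.29 in glia-like cells, against 0.593 in cochlear epithelium-like and 0.424 in connective tissue-like cells. This difference was not tested either.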

How the results depend on the processing

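The 7 summed results kept their sign under all 80 values computed with other settings, and the 30 results on single genes did so in 357 of 360 values, of which 70 moved beyond the counting interval. The 3 that turned were Kdr in endothelial-like cells from P1 to P14 (log2 ratio -0.16): 0.07 with under 10% mitochondrial UMIs, 0.54 with a marker gate in place of clusters and 0.08 without the endothelial-like cluster with mural markers. The log2 ratio of the 4 receptors in endothelial-like against other cells was 5.94, and 5.79 with the members kept for clustering, 5.79 at resolution 0.4, 5.69 with under 10% mitochondrial UMIs, 5.72 with at least 1000 UMIs, 6.21 as a mean of CPM over cells, 6.08 after thinning and 5.01 with the gate. VEGF ligands there were at -1.08, and at -0.57 with the gate, and Angpt2 at 0.54, and at 0.10 with the gate. VEGF receptors from P1 to P14 in endothelial-like cells were at 0.52, and at 0.66 with under 10% mitochondrial UMIs, 1.22 with the gate, 0.31 without mitochondrial and ribosomal genes, 0.70 without the mural-marker cluster and 0.15 relative to the median gene. Tie receptors were at 0.87, and in the same order at 1.09, 1.59, 0.66, 1.07 and 0.50, with 0.99 when members were kept, 0.99 at resolution 0.4 and 1.00 as a mean of CPM. Vegfa over all cells was at 0.68, and at 0.82 as a mean of CPM, 0.94 after thinning, 0.52 without mitochondrial and ribosomal genes and 0.49 relative to the median gene. The cause of these moves was not tested. The settings without mitochondrial and ribosomal genes, without the mural-marker cluster, relative to the median gene and without the glia-like cluster full of marked doublets were chosen after seeing the data. No paired analysis was possible because each stage has 1 library, and for the same reason no library could be left out. At P14, 61 pericyte and smooth muscle-like cells held 86663 UMIs, so 1 UMI stands for 11.5 CPM and a count of 0 allows 34.6 CPM there.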

Other observations

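The RNA levels of genes of the oxygen-sensing pathway upstream of Vegfa were not alike between the stages outside the endothelial-like cells. Hif1a was at 80.4 CPM (78.7 to 82.3) at P1, 93.6 CPM (91.7 to 95.6) at P7 and 186 CPM (178 to 195) at P14, and Epas1 at 18.6, 31.2 and 50.1 CPM. Vhl, which marks both for breakdown, was at 43.4, 35.7 and 31.6 CPM, and the prolyl hydroxylase gene Egln1 at 6.53, 4.20 and 3.38 CPM. Egln3, another prolyl hydroxylase gene, was at 4.82, 3.16 and 5.73 CPM, and Arnt, which codes for the partner of both factors, at 4.46, 3.25 and 6.25 CPM, so these genes did not go one way. The makeup of these cells differed between the stages.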
